A study of Homo sapiens with 6 samples.

Results

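The lysine acetyltransferases other than HBO1 were followed here in cells depleted of HBO1. The 9 genes were taken from a list of names, which was chosen with earlier results of these data known. They were the MYST paralogs KAT5, KAT6A, KAT6B and KAT8, the GCN5/PCAF pair KAT2A and KAT2B, the p300/CBP pair EP300 and CREBBP, and HAT1. They are 9 of 26967 named genes in the deposited table, and each value is the sum over the gene's RefSeq transcripts. All 9 were among the 15173 genes tested, which averaged 10 or more normalized counts per library. They comprise 18 deposited transcripts.

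RNA-seq was done on UWB1.289, a BRCA1-deficient cell line from a human ovarian carcinoma. Cells were transduced with lentivirus carrying a control hairpin (shCTRL, 3 libraries) or a hairpin against HBO1 (shHBO1, 3 libraries). Both groups received polybrene at 10 µg/mL and, after 96 h, puromycin rising from 1 to 3 µg/mL, so both are selected, transduced populations. HBO1 is the acetyltransferase encoded by KAT7, also called MYST2. How many hairpins were used is not stated, so loss of HBO1 cannot be told apart from other effects of a hairpin. The labels do not say that replicates were separate cultures, so p-values reflect only how these libraries scatter, and that scatter may be technical. In bulk RNA, fewer cells of a type and less RNA per cell cannot be told apart. The libraries held 35940400 to 39908703 recovered reads. The tumour epithelial genes PAX8 and EPCAM averaged 10220 and 27414 normalized counts in shCTRL, and 7 tumour epithelial markers summed to between 212805 and 266109 in a library. The list's sum was mostly KRT8 and KRT18, and WT1 was nearly absent, with a mean of 13.4. The leukocyte, endothelial and fibroblast lists summed to at most 1319 in a library, most of it from CD68, CDH5 and COL1A1, with means of 496, 1032 and 688 in shCTRL. CD3E and DCN were listed at 0 in every shCTRL library. CDH5 and CD14 were below control in all 3 same-numbered pairs. Their means in shHBO1 were 743 and 18.6, against 1032 and 38.9 in shCTRL. Other markers went both ways. KDR, COL1A1 and COL1A2 were above control in all 3 pairs, and the tumour markers PAX8, KRT19 and MUC16 were below it in all 3. None of these markers passed after adjustment, and the part of such differences in the results was not tested.

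Lysine acetyltransferases transfer an acetyl group from acetyl-CoA to lysine side chains of histones and other proteins. The MYST enzymes share a catalytic domain and work in complexes: KAT5 (TIP60) in NuA4, KAT8 (MOF) in the MSL and NSL complexes, and KAT6A and KAT6B (MOZ and MORF) with the BRPF scaffolds that HBO1 can also bind. KAT2A (GCN5) and KAT2B (PCAF) occupy the same position in SAGA and ATAC, p300 and CBP are closely related transcriptional coactivators, and HAT1 acetylates newly made histone H4 before it is deposited. The question was whether the mRNAs of these enzymes differed when HBO1 was depleted.

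KAT7 itself was at 3616, 3952 and 3554 normalized counts in shCTRL replicates 1, 2 and 3 and at 1008, 872 and 784 in the shHBO1 replicates. It fell to a fold of 0.239 (limma log2 fold change −2.07, SE 0.11, adjusted p = 0.00123), and the groups were 2546 normalized counts apart at their closest. The exact two-sided permutation test gave p = 0.1, the smallest value that 3 against 3 libraries can reach.

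None of the 9 other acetyltransferases passed an adjusted p of 0.05 between shHBO1 and shCTRL. The count was 0 in limma, edgeR and DESeq2, and 0 members had an unadjusted p under 0.05 in any of these fits without a replicate block. Over all tested genes, 0.00659% passed in limma after adjustment (KAT7 alone) and 3.55% had an unadjusted p under 0.05. Fold changes are given on the log2(normalized count + 1) scale as shHBO1 minus shCTRL. The members' estimates ran from −0.20 for KAT8 to 0.33 for KAT2B, with 7 above 0, 2 below 0 and a median of 0.16. All tested genes had a median of 0.00013, with 7592 above 0 and 7581 below. The 95% confidence intervals bounded each member. Across the 9, the lowest lower bound was a fold of 0.752 (KAT8) and the highest upper bound a fold of 1.58 (KAT2B), so a 2-fold difference lay outside every member's interval.

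**Figure D1:**
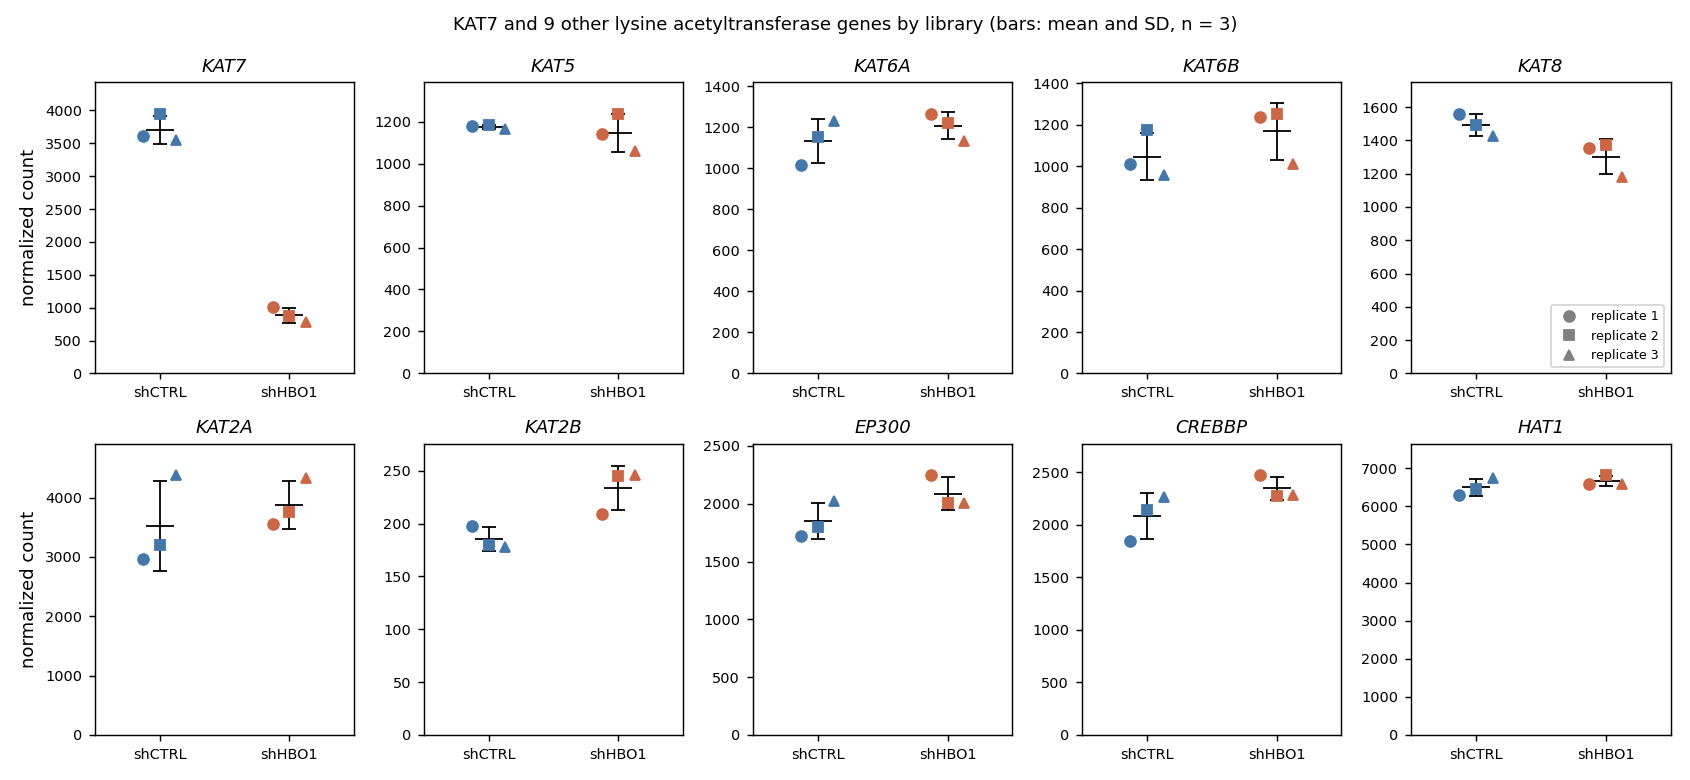
Normalized counts of KAT7 and the 9 other acetyltransferase genes in each library (y axes from 0, 1 panel per gene), with shCTRL in blue, shHBO1 in orange-red, marker shape for the replicate number, and the mean with SD (n = 3). KAT7 averages 888 in shHBO1 against 3707 in shCTRL, and the groups of 6 of the other 9 genes overlap, with KAT8, KAT2B and CREBBP apart.

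Libraries with the same replicate number deviated together (correlations across genes of 0.32, 0.19 and 0.48 for numbers 1, 2 and 3), although shCTRL replicate 2 correlated slightly more with shHBO1 replicate 1 (0.21). A second fit took the number as a block. With that replicate block 0.125% of tested genes passed after adjustment, 19 genes in all, and again 0 of the 9 members. Unadjusted p-values under 0.05 in the blocked fit went to 11.3% of tested genes and to 2 members, KAT8 (lower, limma adjusted p = 0.334) and KAT2B (higher, limma adjusted p = 0.425).

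Among the MYST paralogs, KAT8, which acetylates histone H4 lysine 16 within MSL, had the lowest estimate. Its values were 1561, 1490 and 1428 normalized counts in shCTRL and 1356, 1372 and 1181 in shHBO1. All 3 shHBO1 libraries lay below all 3 shCTRL libraries, by 56.7 normalized counts at the closest, where counting error alone gives an SD of 53.8 for that gap. The mean was 1493 ± 66.4 (SD, n = 3) for shCTRL and 1303 ± 106 for shHBO1. The log2 fold change was −0.20 (SE 0.092, 95% interval −0.41 to 0.014, limma adjusted p = 1.00). It was lower in 3 of 3 same-numbered pairs, at 86.9%, 92.1% and 82.7% of its control. Of all tested genes, 4.44% had every shHBO1 library below every shCTRL library, and KAT8 was the only member to do so.

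KAT5, the catalytic subunit of NuA4, was at 1179, 1183 and 1164 normalized counts in shCTRL and 1143, 1238 and 1059 in shHBO1. The control libraries lay within the spread of the knockdown libraries. Its log2 fold change was −0.039 (SE 0.089), and its SD was 9.95 in shCTRL against 89.9 in shHBO1 (n = 3 each). The shCTRL SD was 0.847% of the mean, below the counting error of 3.02% at the lowest library, so the 2 SDs were not compared further.

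KAT6A and KAT6B are the paralogs that share BRPF scaffolds with HBO1. KAT6A was at 1017, 1152 and 1231 normalized counts in shCTRL and 1268, 1222 and 1136 in shHBO1. KAT6B was at 1009, 1175 and 956 in shCTRL and 1239, 1255 and 1011 in shHBO1. The groups overlapped for both genes, with log2 fold changes of 0.096 (SE 0.10) for KAT6A and 0.16 (SE 0.12) for KAT6B. Within same-numbered pairs KAT6A ranged from 92.3% of its control in number 3 to 124.7% in number 1, and KAT6B was above its control in all 3 pairs.

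The summed MYST paralogs overlapped between the groups. Their 4 genes summed to 4765, 5000 and 4780 normalized counts in shCTRL and 5006, 5086 and 4387 in shHBO1, with means of 4849 ± 131.5 and 4826 ± 383 (SD, n = 3). With KAT7 included, the sum of the 5 MYST genes went from 8556 ± 344 to 5714 ± 472, so the mean difference of the 5 genes, −2842 normalized counts, was close to that of KAT7 alone, −2819. These are raw sums that count long transcripts more heavily. Per kb of transcript, the 4 paralogs summed to 1791 ± 31.7 in shCTRL and 1679 ± 121 in shHBO1, and the groups again overlapped. This per-kb sum was at 94.9%, 98.3% and 87.8% of control in pairs 1, 2 and 3. The raw sum of the 4 was at 105.0%, 101.7% and 91.8%.

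KAT2B had the largest estimate and the lowest level of the 9. PCAF, its product, acetylates histone H3 in SAGA and ATAC and also non-histone proteins. Its values were 198, 180 and 178 normalized counts in shCTRL and 209, 245 and 246 in shHBO1. All shHBO1 libraries lay above all shCTRL libraries, but the nearest ones were 11.3 normalized counts apart, with a counting SD of 19.9 for that gap. The mean was 185 ± 11.0 for shCTRL and 234 ± 21.0 for shHBO1 (SD, n = 3). The log2 fold change was 0.33 (SE 0.14, 95% interval −0.0014 to 0.66, limma adjusted p = 1.00). A library held only 170 to 255 reads of KAT2B, so the counting error at the lowest library was 7.67% of the value, against 1.27% for HAT1. An absolute difference of this size or larger was found in 11.8% of tested genes.

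KAT2A, the paralog of KAT2B and the more abundant of the pair, was at 2968, 3198 and 4381 normalized counts in shCTRL and 3548, 3748 and 4324 in shHBO1. Libraries numbered 3 were the highest in both groups and nearly equal. Between replicate numbers KAT2A differed (limma F test with group as a term, adjusted p = 0.0371), by 0.42 on the log2 scale between number 3 and number 1. It was the only one of the 9 to do so, where 9.68% of tested genes did. Its difference between hairpins was 0.16 (SE 0.15), and it was at 119.5%, 117.2% and 98.7% of its control in pairs 1, 2 and 3. Without shCTRL replicate 3 the estimate was 0.33 (limma adjusted p = 0.245), and without shCTRL replicate 1 it was 0.044.

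EP300 and CREBBP, the coactivator paralogs, had estimates of the same size. EP300 was at 1720, 1802 and 2022 normalized counts in shCTRL and 2249, 2003 and 2008 in shHBO1. CREBBP was at 1842, 2141 and 2264 in shCTRL and 2473, 2276 and 2285 in shHBO1. Both genes were lowest in shCTRL replicate 1 and highest in shHBO1 replicate 1. The EP300 groups overlapped, whereas those of CREBBP were separated by 11.7 normalized counts, with a counting SD of 68.5 for that gap. CREBBP and KAT2B were the 2 members with every shHBO1 library above every shCTRL library, a pattern found in 4.49% of tested genes. The log2 fold changes were 0.18 (SE 0.093, 95% interval −0.038 to 0.39) for EP300 and 0.18 (SE 0.096, 95% interval −0.047 to 0.40) for CREBBP. Most of each difference lay in pair 1, where EP300 was at 130.8% and CREBBP at 134.2% of control. In pair 3 they were at 99.3% and 100.9%.

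These profiles were also close to each other over the 6 libraries. With log2 values centred on each gene's mean, CREBBP differed from EP300 by a root mean square of 0.046, and among 13219 other genes with a mean of at least 50 it ranked 13 in likeness to EP300. EP300 ranked 6 in likeness to CREBBP, and KAT6A ranked 16 (0.052). The libraries share depth scaling and replicate number, so this is a description of 6 points. By the same measure the closest genes were GAREM1 (0.024) and HELZ (0.027) for EP300, BDNF (0.040) and ATXN1L (0.041) for CREBBP, AMMECR1 (0.040) and DHFR2 (0.065) for KAT2B, and PDIA4 (0.033) and ANAPC15 (0.033) for KAT8. KAT2A was closest to CCNE1 (0.016) and FERMT2 (0.023), KAT5 to RACK1 (0.010) and ATP6V0D1 (0.011), KAT6A to SP2 (0.023) and CECR7 (0.026), KAT6B to RRN3P3 (0.046) and TRERF1 (0.048), and HAT1 to CCNK (0.0087) and SEC24B (0.014).

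The promoter sequences of this pair are shown because EP300 and CREBBP had similar profiles. RefSeq (GRCh38.p14) gives 1 start for EP300 and 2 for CREBBP in the table used, each as 250 bases before to 50 bases after the start, in the direction of transcription. Capitals mark the cyclic AMP response element core TGACG and the GC box GGGCGG on either strand, with overlapping matches run together.
EP300, chr22:41092342-41092641 (+ strand): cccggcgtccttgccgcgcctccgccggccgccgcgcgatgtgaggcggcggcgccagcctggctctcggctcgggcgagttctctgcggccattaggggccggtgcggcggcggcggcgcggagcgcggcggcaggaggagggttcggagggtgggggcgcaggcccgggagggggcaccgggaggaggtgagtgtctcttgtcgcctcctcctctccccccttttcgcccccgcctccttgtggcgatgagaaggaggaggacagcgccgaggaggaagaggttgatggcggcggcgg
CREBBP upstream start, chr16:3880664-3880963 (− strand): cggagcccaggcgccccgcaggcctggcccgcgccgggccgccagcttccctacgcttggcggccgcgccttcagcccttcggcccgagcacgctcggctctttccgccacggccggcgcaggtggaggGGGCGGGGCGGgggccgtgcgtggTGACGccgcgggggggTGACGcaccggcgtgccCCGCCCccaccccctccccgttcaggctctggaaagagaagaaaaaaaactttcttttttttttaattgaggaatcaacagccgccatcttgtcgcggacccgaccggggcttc
CREBBP downstream start, chr16:3880071-3880370 (− strand): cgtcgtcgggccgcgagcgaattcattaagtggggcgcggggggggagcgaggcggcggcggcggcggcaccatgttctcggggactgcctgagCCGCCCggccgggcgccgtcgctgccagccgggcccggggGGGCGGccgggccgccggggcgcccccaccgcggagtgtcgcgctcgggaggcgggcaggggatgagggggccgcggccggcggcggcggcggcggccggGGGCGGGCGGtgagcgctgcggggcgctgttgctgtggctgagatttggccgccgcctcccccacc
TGACG occurred 2 times in the upstream CREBBP window and in neither of the others. GGGCGG occurred 3 times in the upstream and 4 times in the downstream CREBBP window, and not in that of EP300. The windows contained 75.3% G and C in EP300, and 70.3% and 82.0% in CREBBP. Of 34796 different promoters of this length, 24.5% held TGACG and 44.9% held GGGCGG. A match is only a run of letters.

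HAT1, the type B histone acetyltransferase, was the most abundant member and had the narrowest interval. It was at 6301, 6456 and 6742 normalized counts in shCTRL and 6600, 6826 and 6595 in shHBO1. The groups overlapped, with means of 6500 ± 224 and 6673 ± 132 (SD, n = 3) and a log2 fold change of 0.038 (SE 0.063, 95% interval −0.11 to 0.18). A difference beyond a fold of 0.928 or 1.14 lay outside that interval.

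**Figure D2:**
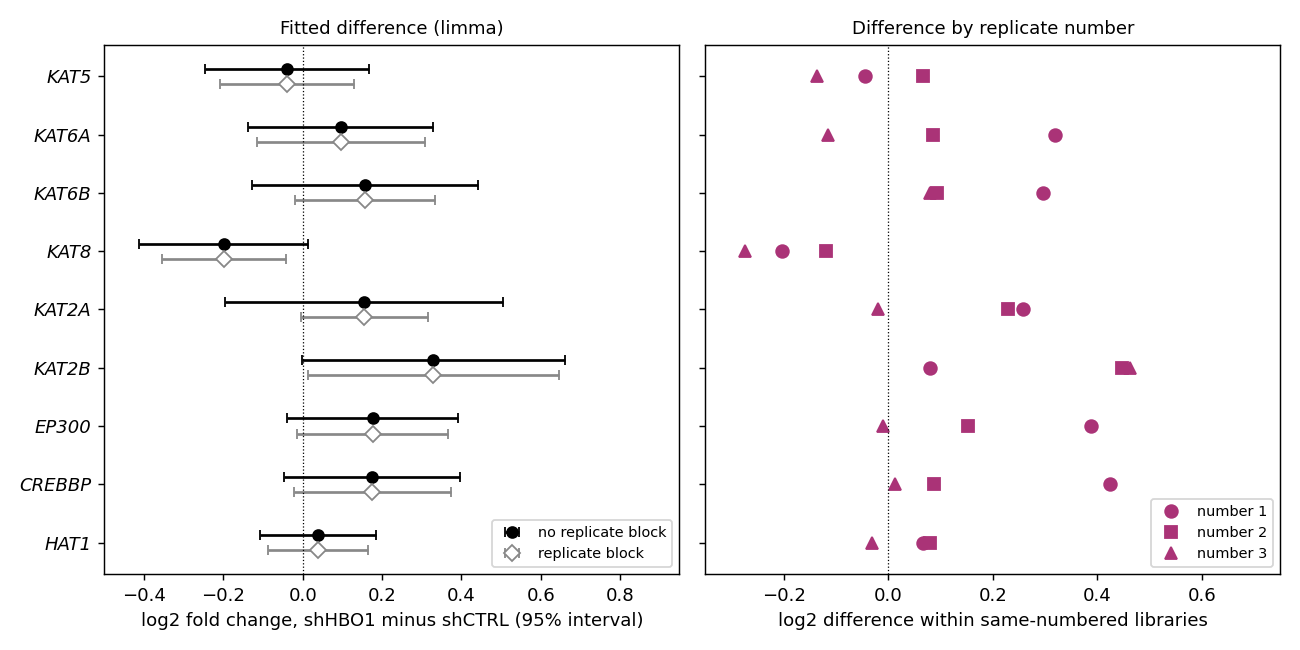
Left, log2 fold change of each member (shHBO1 minus shCTRL) with its 95% confidence interval from limma, without a block (black) and with the replicate number as a block (grey). Right, the log2 difference within each same-numbered pair of libraries: KAT8 is below 0 in all 3 pairs, KAT2B, KAT6B and CREBBP are above 0 in all 3, and number 3 gives the lowest value for 8 of the 9 genes, all but KAT2B.

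The members also differed from each other in level. Levels were compared as normalized counts per kb, each transcript divided by its length in GENCODE release 29, which covered all 18 transcripts. In shCTRL the order was HAT1 (4007 ± 140.5), KAT2A (1131 ± 244), KAT8 (954 ± 39.1), KAT5 (580.5 ± 7.03), CREBBP (206 ± 24.2), EP300 (193 ± 16.3), KAT6B (133 ± 14.5), KAT6A (123 ± 11.9) and KAT2B (38.4 ± 2.28), each as mean ± SD with n = 3. Neighbours with overlapping shCTRL libraries were KAT2A with KAT8, CREBBP with EP300, and KAT6B with KAT6A. HAT1 alone made up 54.4% of the length-adjusted sum of the 9 in shCTRL and 54.6% in shHBO1. The order of the 9 by mean was the same in shHBO1, where KAT2A (1246 ± 130) no longer overlapped KAT8 (831 ± 64.4). The sum of the 9 per kb was 7366 ± 382 in shCTRL and 7537 ± 122 in shHBO1, with overlapping groups.

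**Figure D3:**
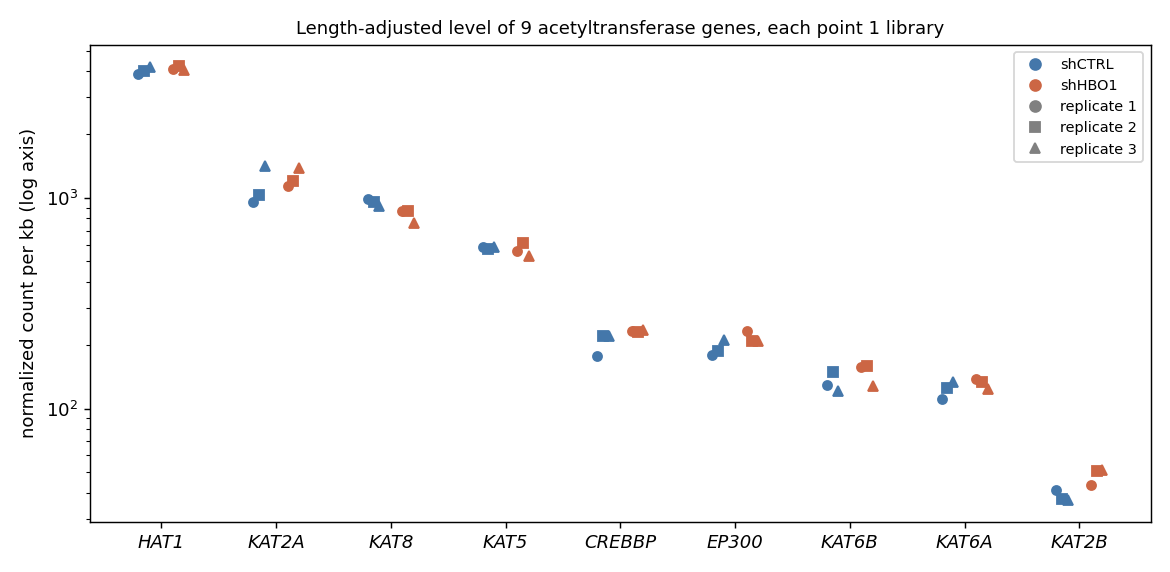
Normalized counts per kb of the 9 genes on a log axis, 1 point per library, shCTRL in blue and shHBO1 in orange-red, with marker shape for the replicate number. The genes span from a mean of 4007 for HAT1 to 38.4 for KAT2B in shCTRL, and the 2 groups keep the same order of means.

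Single transcripts were examined next. Of the members' 18 transcripts 17 had a mean of at least 10 and were tested, and 0 passed in limma without or with the replicate block. Without and with the block, 0 and 1 had an unadjusted p under 0.05. The share of all tested transcripts with such a p was not computed, so nothing is read from that count. Over all 33630 transcripts 0.00297% passed, which was the main KAT7 transcript NM_007067 (limma log2 fold change −1.89, adjusted p = 0.0377). With the replicate block it had the same fold change and no longer passed (limma adjusted p = 0.631). Among the members' transcripts, 3 had every shHBO1 library above every shCTRL library (4.71% of all tested transcripts did) and 2 had every library below (4.37% of all).

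In CREBBP, reads moved between the 2 deposited transcripts from library to library. The shorter NM_001079846 took 11.0%, 26.8% and 12.0% of the gene's normalized count in shCTRL and 6.16%, 22.8% and 28.3% in shHBO1. Its level had a coefficient of variation of 56.5% in shCTRL, whereas that of the gene sum was 10.4%. The longer NM_004380 averaged 1733 ± 228 in shCTRL and 1905 ± 365 in shHBO1 (n = 3). The separation of the groups seen in the CREBBP sum was therefore absent from both of its transcripts. The sources used here do not say how a read matching both was assigned.

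KAT6B had 3 transcripts. NM_001256468 took 19.7%, 21.6% and 19.3% of the gene in shCTRL and 16.2%, 15.3% and 11.8% in shHBO1. All shHBO1 shares were below all shCTRL shares, which held for 4.51% of 27398 transcripts of genes with more than 1, and for this 1 of the 14 such transcripts of the members. The opposite separation occurred in 4.85% of transcripts and in 0 of the 14. NM_001256469, the most abundant KAT6B transcript, was at 499, 469 and 373 normalized counts in shCTRL and 590, 609 and 514 in shHBO1. It was higher in every shHBO1 library, with a log2 fold change of 0.36 (SE 0.17, limma adjusted p = 1.00). The blocked fit gave a limma adjusted p of 0.843. NM_012330 was at 387 ± 71.4 and 426 ± 42.5.

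The main KAT8 transcript NM_032188 was at 1244, 1252 and 1202 normalized counts in shCTRL and 1152, 1042 and 1000 in shHBO1. It was lower in every shHBO1 library, with a log2 fold change of −0.21 (SE 0.11), as in the gene sum. The second transcript, NM_182958, overlapped between groups, with a mean of 260 ± 49.2 in shCTRL and 238 ± 80.1 in shHBO1. Of the 4 KAT5 transcripts the main one, NM_182709, was at 611, 704 and 622 in shCTRL and 606, 576 and 518 in shHBO1. These values were separated by only a few counts, with a log2 fold change of −0.19 (SE 0.14). The other 3 KAT5 transcripts had log2 fold changes from 0.032 to 0.25. The main HAT1 transcript NM_003642 was at 5985, 6068 and 6181 in shCTRL and 6274, 6327 and 6342 in shHBO1. It was higher in every shHBO1 library, unlike the gene sum, with a log2 fold change of 0.055 (SE 0.060). The KAT6A transcript NM_001305878 held at most 5.09 normalized counts in a library and was not tested.

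**Figure D4:**
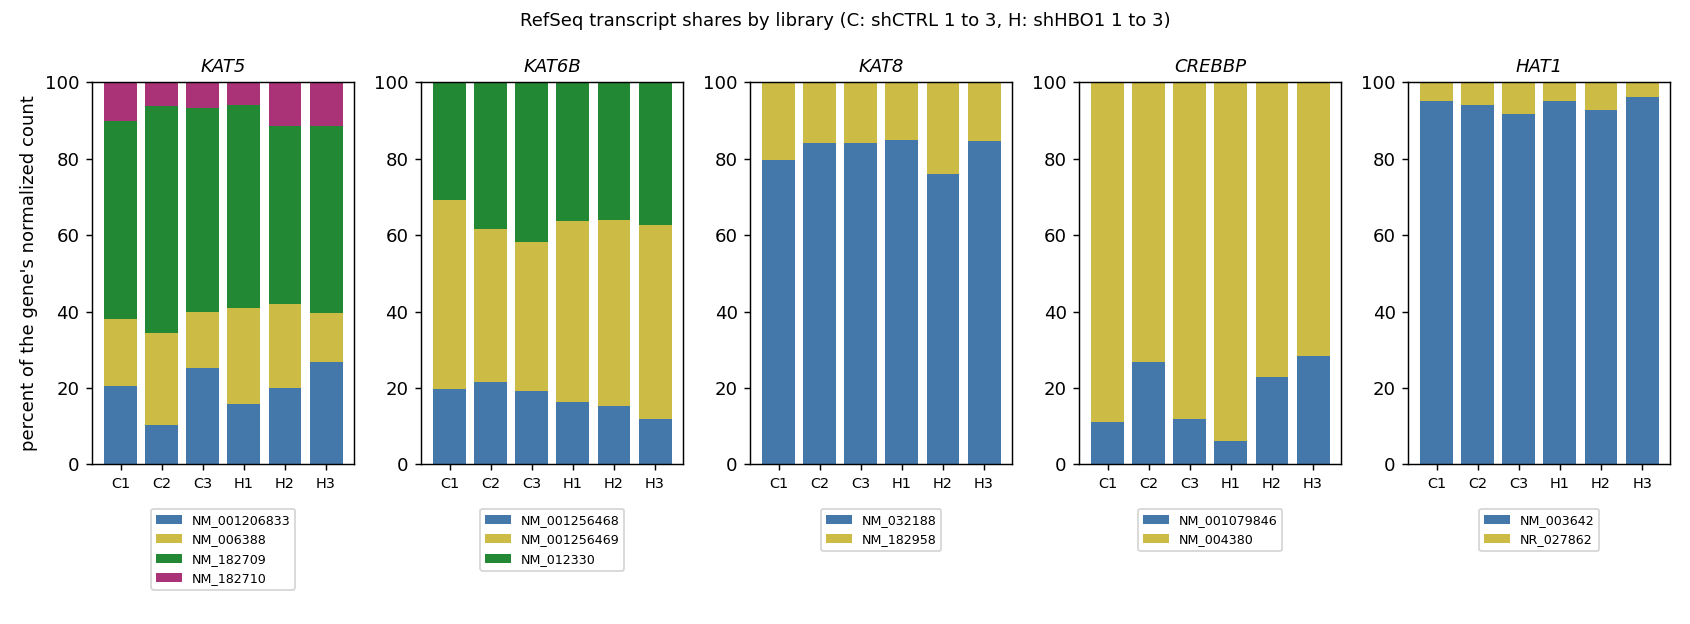
Percent of each gene's normalized count assigned to each deposited RefSeq transcript in the 6 libraries (C1 to C3 shCTRL, H1 to H3 shHBO1) for the 5 members with more than 1 tested transcript. The CREBBP bars shift from library to library within both groups, and the NM_001256468 bar of KAT6B is shorter in all 3 shHBO1 libraries.

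Companion genes were read from lists of complex subunits and partners of these enzymes, with 6 acetyl-CoA supply genes and 11 other acetyltransferases added. Together the lists hold 91 genes, 90 of them tested. In limma 0 passed in either direction, with or without the block. Without the block 1 had an unadjusted p under 0.05 in each of limma, edgeR and DESeq2, where 3.55% of all tested genes did in limma. With the block 8 did in limma (3 higher and 5 lower) and 8 in edgeR, where 11.3% of all tested genes did in limma. Their median log2 fold change was 0.0047, with 46 above 0 and 44 below. The gene with that p without the block was MSL2, a ubiquitin ligase subunit of the KAT8-containing MSL complex, at 1681, 1660 and 1680 normalized counts in shCTRL and 1835, 1935 and 1926 in shHBO1. Every shHBO1 library was above every shCTRL library, and the log2 fold change was 0.18 (SE 0.071, limma adjusted p = 1.00, or 0.334 when blocked). Of the 90 tested companion genes, 3 had every shHBO1 library above every shCTRL library, and 5 had every one below. Of all tested genes, 4.49% and 4.44% did. The list of 11 MSL and NSL subunits had a median of 0.046, with MCRS1 at −0.091 and HCFC1 at 0.10.

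The scaffold and reader subunits of the HBO1, KAT6A and KAT6B complexes, among them the JADE scaffolds of HBO1, had a median of −0.027 over 9 genes, 4 of them above 0. BRPF3 had 0.23 (SE 0.14), ING5 had −0.16 (SE 0.10) and BRD1 had 0.090 (SE 0.083). The 20 SAGA and ATAC subunits had a median of 0.019. KAT14, an ATAC subunit that resembles the acetyltransferases in sequence, had the lowest estimate among them, at 340, 284 and 332 normalized counts in shCTRL and 264, 275 and 201 in shHBO1. Its shHBO1 libraries were all below its shCTRL libraries, with a log2 fold change of −0.38 (SE 0.16, limma adjusted p = 1.00). The scaffold TRRAP, common to SAGA and NuA4, had 0.18 (SE 0.095) and SUPT20H had −0.11 (SE 0.077). The 16 NuA4 subunits had a median of 0.046, with 11 above 0, among them EPC1 at 0.17 and EP400 at 0.099.

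The 12 tested p300/CBP partners had a median of −0.032, with 4 above 0. The CREB coactivator CRTC1 had 0.19 (SE 0.093), CRTC3 had −0.099 and the nuclear receptor coactivator NCOA3 had −0.17 (SE 0.17). The 6 HAT1 partners and histone chaperones had a median of −0.015. ASF1B, which carries new H3 and H4, was at 5704, 5853 and 6144 normalized counts in shCTRL and 5202, 5250 and 5538 in shHBO1. All shHBO1 libraries were lower, with a log2 fold change of −0.15 (SE 0.066). RBBP4 had −0.11 (SE 0.063) and ASF1A had 0.15 (SE 0.13). The 11 other acetyltransferases had a median of 0.017, with ESCO2 at 0.15, CLOCK at 0.11 and NAA40 at 0.087.

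Genes that supply acetyl-CoA had a median of −0.11 over 6 genes. ACSS2, which makes acetyl-CoA from acetate, was at 4236, 1390 and 461 normalized counts in shCTRL and 1586, 641 and 374 in shHBO1. It differed between replicate numbers by −2.64 on the log2 scale between number 3 and number 1 (limma F test, adjusted p = 0.0020), and by −0.94 (SE 0.80) between hairpins. The citrate carrier SLC25A1 had −0.35 (SE 0.25) and ACLY, which makes acetyl-CoA from citrate, had −0.17 (SE 0.21). All 3 of these genes differed between replicate numbers, 3 of the 6 in the list, where 9.68% of tested genes did. The rest of the list had −0.045 (PDHA1), 0.019 (ACSS1) and 0.048 (SLC33A1). Within same-numbered pairs ACSS2, SLC25A1 and ACLY were below control in 3 of 3 pairs, with ACSS2 at 37.4%, 46.1% and 81.1%. ACSS1 and SLC33A1 were above control in 3 of 3. The replicate block left their estimates as they were and gave limma adjusted p-values of 0.125 for ACSS2, 0.203 for SLC25A1 and 0.334 for ACLY.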

How the data were processed

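The values are normalized signal per transcript, which the authors deposited as 1 table of 58215 accessions over 6 libraries. The submitters' processing notes list Bowtie 1.2.1.1, SAMtools, DESeq2 and hg19 but give none a role, and the assignment of reads that fit several transcripts is not stated. Within a library all values were multiples of 1 unit, so whole reads could be recovered (100% of values within 0.01 read). Names came from RefSeq (57191 transcripts) and GENCODE release 29 (646); 378 unnamed transcripts, 0.0920 to 0.0977% of reads, were left out. Reads from overlapping or antisense genes, or counted for several transcripts, could not be separated. Transcripts were summed per gene.

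The main test was limma-trend 3.58.1 (R 4.3.3) on log2(value + 1) for genes averaging 10 or more, Benjamini-Hochberg adjusted over all of them, with a threshold of 0.05. edgeR 4.0.16 and DESeq2 1.42.0 ran on the recovered reads. Scripts were tested on simulated data. Replicates differed beyond sampling noise (12.8 to 71.0 chi-square per degree of freedom), and none were merged. Same-numbered libraries were treated as pairs because all 3 correlations exceeded 0.1; the labels name no shared day. Companion genes named are the 3 with the smallest p in each list; for each member its 2 most alike genes and up to 2 transcripts are named, and others were chosen after their values were seen. The members and lists were chosen with earlier results of these data known.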

Additional observations from a re-analysis of the deposited data

How the results depend on the processing

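Of the 9 members 0 passed in each of the 17 alternatives to the main test, as did 0 of the companion genes. The alternatives were other filters, pseudocounts and scalings, the replicate block, each library left out in turn, edgeR, DESeq2, the most abundant transcript in place of the sum, and, chosen after seeing the data, both libraries numbered 3 left out. The member estimates kept their sign in 151 of 153 comparisons. Part of these were fixed in advance, because the filters and the limma replicate block cannot change an estimate. The most abundant transcript likewise equals the sum for KAT2A, KAT2B and EP300, which have 1 deposited transcript each. The 2 reversals were both of KAT5, to 0.010 without the libraries numbered 3 and within a leave-one-out range of −0.096 to 0.017; the cause was not tested. The count of called genes was 1 in the main test, 19 with the replicate block, 19 in edgeR with the block and 19 in DESeq2, and 1 whichever library was left out. The transcript count went from 1 to 0 with the block. For these counts, too, the cause was not tested. The block changed no call of a member. Without shCTRL replicate 3, 4 members had an unadjusted p under 0.05 (KAT2A, KAT8, EP300 and CREBBP, lowest limma adjusted p = 0.245). Without the libraries numbered 3 there were 3 (KAT2A, EP300 and CREBBP, lowest limma adjusted p = 0.237). Of the 90 tested companion genes, a list much longer than that of the 9 members, 15 and 12 had such a p in these fits. In the main test 1 did. The share over all tested genes was not computed for these fits. Whether the rise was particular to the members was therefore not tested. KAT2B had an unadjusted p under 0.05 with quantile normalization and without shHBO1 replicate 1. KAT2B ranged from 0.26 to 0.41 and KAT8 from −0.24 to −0.13 over all alternatives, KAT2A from 0.044 to 0.33, EP300 from 0.12 to 0.27, CREBBP from 0.090 to 0.26, KAT6A from 0.020 to 0.20, KAT6B from 0.095 to 0.36 and HAT1 from 0.016 to 0.073. Leaving out 1 library moved KAT6A to 0.020 and HAT1 to 0.016 (shCTRL replicate 1) and KAT6B to 0.26 (shHBO1 replicate 3). Other scalings moved the median of all genes by less than 0.1 on the log2 scale. Depth limited KAT2B most, at 170 reads in its lowest library.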
